A study of Ovis aries with 20 samples.

Results

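The pancreas of CFTR−/− sheep fetuses was compared with that of WT fetuses at 65 days of gestation, across all genes. The comparison takes the 2 CFTR−/− and the 2 WT libraries whose labels give this age, 4 of the 20 bulk RNA-seq libraries analysed here, and the other 16 libraries served to estimate the spread between animals. The series follows the pancreas of both genotypes through gestation, with 2 animals of each at 65, 80, 100 and 120 days and at term, and at the earliest of these ages the comparison asks how the tissues of the genotypes differ. Each library holds RNA of pancreas tissue from 1 fetus. The CFTR−/− fetuses were clones made by somatic cell nuclear transfer, in which a donor cell nucleus replaces that of an egg, and they derive from 1 line of male American Romney fetal fibroblasts (CF 60) in which exon 2 of CFTR had been targeted. The WT fetuses came from ordinary breeding and their sex is not given, so the CFTR genotype, cloning and the genome of a single donor line cannot be told apart. The labels of both animals of a pair share a stem in each genotype, as do those of triplets and twins elsewhere in the study, so each pair may come from 1 pregnancy. Litter and genotype then cannot be told apart either, and p-values would measure the spread within litters. WT animal 1 has a label that CFTR−/− animal 2 at 100 days also carries.

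CFTR is a chloride and bicarbonate channel of epithelial cells, and in the pancreas it sits in the ducts, where it drives the secretion of the alkaline fluid that carries digestive enzymes to the gut. The fetal pancreas grows from epithelial buds inside a loose mesenchyme. The epithelium gives rise to enzyme-making acinar cells, to ducts and, through cells that switch on the factor NEUROG3, to the hormone-making endocrine cells of the islets, while vessels, nerves with their Schwann cells, and fibroblast-like stromal and stellate cells fill the space between them.

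The 4 libraries were of like depth. WT animals 1 and 2 had 61851866 and 63946452 counts of reads in genes, and CFTR−/− animals 1 and 2 had 59478191 and 60514559. Expression is given as counts per 1000000 (CPM) after TMM normalization, and 1 count was worth 0.0123, 0.0131, 0.0124 and 0.0101 CPM in the same order, with animal 1 named before animal 2 throughout. The chymotrypsinogen gene CTRB1 (LOC101117443) was the most abundant gene of all 4 libraries, so that each shows the enzyme expression of pancreas, with 5.08% and 4.82% of counts in WT and 4.75% and 2.33% in CFTR−/− animals. Across genes, log2 CPM of the WT pair correlated at 0.971 (Pearson) and of the CFTR−/− pair at 0.959, against 0.940 to 0.947 between genotypes, and genes are not independent replicates.

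The targeted gene was still transcribed. CFTR (chromosome 4, 50644000 to 50864925 of Oar_v4.0) had 30.3 and 34.6 CPM in WT and 44.5 and 45.8 CPM in CFTR−/− animals. Both CFTR−/− values lay above both WT values, with a log2 fold change of CFTR−/− over WT of 0.48 (SE 0.36, edgeR quasi-likelihood test, Benjamini-Hochberg adjusted p = 0.713). A count over the whole gene does not show which exons the reads hold, so it does not check the label.

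No gene passed the test across the whole transcriptome. Calls needed an edgeR p of 0.01 or less after Benjamini-Hochberg adjustment and a log2 fold change of 0.58 or more in either direction, and 0 of the 19522 genes tested (0.00%) met both. The smallest adjusted p was 0.147, shared by 11 genes, while 1928 genes (9.88%) had an unadjusted p under 0.05. The Wald test of DESeq2 called 42 genes at the same limits (16 higher and 26 lower in CFTR−/− animals), the likelihood ratio test of edgeR called 8 (2 higher and 6 lower), and the quasi-likelihood test fitted to the 4 libraries alone called 123 (80 higher and 43 lower). With 2 animals in each group, the smallest two-sided p that exact permutation allows is 0.333. All differences below are therefore described per animal and not as calls. An unadjusted p of at most 0.01 together with the limit on the fold change ranks the genes, and by it 597 genes (3.06% of those tested) were ranked, 351 of them (1.80%) higher and 246 (1.26%) lower in CFTR−/− animals. Both CFTR−/− values lay above both WT values for 5688 genes (29.1%) and below them for 4843 (24.8%), and in what follows "above" and "below" are used in this sense of groups that do not overlap. Counts of list members below are to be read beside these shares of all genes and those of the ranked genes. When 1 animal was left out, the ranked genes numbered 77 higher and 111 lower without WT animal 1, 92 and 161 without WT animal 2, 281 and 60 without CFTR−/− animal 1, and 161 and 171 without CFTR−/− animal 2. The second CFTR−/− library of 100 days and the second WT library of 120 days, described as outliers of the series, bear on the estimate of the spread. Without both, 666 genes were ranked higher and 466 lower, and the smallest adjusted p of edgeR was 0.0107 in place of 0.147. The scale matters too. With total counts in place of TMM the median log2 fold change of all genes moved from 0.03 to 0.29, and the higher genes made up 82.8% of the ranked genes in place of 58.8%. On that scale 8108 genes lay above WT and 2492 below. Fold changes below are on the TMM scale.

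The gene with the smallest p was HSPA6 (chromosome 1), an inducible chaperone of the HSP70 family. It had 25.6 and 22 CPM in WT and 0.606 and 1.04 CPM in CFTR−/− animals, a 28.5-fold lower level (log2 fold change -4.84, SE 0.73). Next among the lower genes came SMIM18, a small membrane protein gene, with 31.8 and 32.6 CPM in WT and 3.42 and 7.56 CPM in CFTR−/− animals. DNER, which encodes a membrane protein with EGF repeats that is best known in neurons, had 13.8 and 10.3 CPM against 1.39 and 2.31 CPM. The open reading frame C15H11orf97 had 24.3 and 21.6 CPM in WT and 3.21 and 4.17 CPM in CFTR−/− animals. RESP18, a protein of endocrine secretory granules, was at 257 and 240 CPM in WT and at 24.7 and 34.6 CPM in CFTR−/− animals, 8.38-fold lower. In each of these 5 genes both CFTR−/− animals lay well below both WT animals, and the edgeR adjusted p was 0.147.

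On the higher side, SCN7A, an atypical sodium channel of Schwann cells and glia, had 0.196 and 0.235 CPM in WT and 1.99 and 5.27 CPM in CFTR−/− animals (log2 fold change 4.07, SE 0.71). CGA, the common alpha subunit of the pituitary and placental glycoprotein hormones, had 0.516 and 0.810 CPM in WT and 8.32 and 6.24 CPM in CFTR−/− animals. KRT16 (LOC101108147), a keratin of stratified epithelia, was at 0.884 and 0.601 CPM against 5.01 and 5.49 CPM. FAM129A, which encodes a protein of the endoplasmic reticulum stress response also called Niban, was at 12.6 and 6.65 CPM in WT and at 39.7 and 35.4 CPM in CFTR−/− animals. CARNS1, the enzyme that makes carnosine, rested on 4 and 15 counts in WT against 102 and 579 in CFTR−/− animals. The edgeR adjusted p of these 5 genes was 0.147, except for CARNS1, where it was 0.166.

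Endocrine markers were lower in CFTR−/− animals as a group. All 20 endocrine markers tested had a lower value, all 20 lay below WT (24.8% of all genes did), and 12 of the 20 were among the ranked lower genes (1.26% of all genes were). Their median log2 fold change was -1.86, against 0.03 over all genes. The text of the study names 9 of the 22 genes listed, and 100 of 563 over all lists, so lists that hold such genes are not independent evidence of a direction. Chromogranin A (CHGA), the standard marker of endocrine granules, had 932 and 774 CPM in WT and 168 and 221 CPM in CFTR−/− animals. ISL1, a transcription factor of endocrine cells of all types, had 43.3 and 37.2 CPM in WT and 12.2 and 18.4 CPM in CFTR−/− animals. The calcium sensor secretagogin (SCGN) was at 310 and 246 CPM against 49.2 and 83.8 CPM. Summed over the list, endocrine markers came to 12781 and 8262 CPM in WT and to 2055 and 3419 CPM in CFTR−/− animals, with glucagon the largest contributor. Insulin was not analysed here. In bulk tissue, fewer endocrine cells and less RNA of these genes per cell cannot be told apart. The ranked markers numbered 5 without WT animal 1, 9 without WT animal 2, 1 without CFTR−/− animal 1 and 8 without CFTR−/− animal 2, while the median lay between -1.51 and -2.35.

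The peptide hormones of islets and gut were the list with the lowest median. Of 14 tested, 11 had a lower value, 10 lay below WT (24.8% of all genes did) and 6 were among the ranked lower genes (1.26% of all genes). Their median log2 fold change was -2.24. Glucagon (GCG), the alpha cell hormone and the endocrine gene with the highest CPM, had 8712 and 4081 CPM in WT and 1256 and 2164 CPM in CFTR−/− animals. Ghrelin (GHRL), made by epsilon cells of the fetal islet, had 12.3 and 74.2 CPM in WT and 0.582 and 0.685 CPM in CFTR−/− animals. The WT animals differed widely from each other, yet both were far above the CFTR−/− animals, and the log2 fold change was -6.08 (SE 1.65). GIP, an incretin otherwise made by K cells of the gut, had 60.8 and 215 CPM in WT and 1.86 and 7.29 CPM in CFTR−/− animals, 29.9-fold lower. Gastrin (GAST), which is expressed in the islets only before birth in mammals studied so far, had 3.76 and 20.1 CPM against 0.854 and 0.655 CPM. VIP, a peptide of neurons that stimulates ductal secretion, had 9.94 and 14.8 CPM against 2.08 and 2.81 CPM. GHRL, GIP, GAST and VIP were each higher in WT animal 2 than in WT animal 1, while GCG was lower. Whether gut tissue contributed to these values was not tested. Neurotensin (NTS) went the other way, at 2 and 15 counts in WT and 33 and 298 counts in CFTR−/− animals, and it was the only ranked higher gene of the list. The ranked lower hormones numbered 6 without WT animal 1, 3 without WT animal 2, 2 without CFTR−/− animal 1 and 4 without CFTR−/− animal 2.

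The machinery that makes and stores these peptides shares genes with the list of endocrine markers. Of 18 genes of prohormone processing and secretory granules, 16 were lower and 15 lay below WT (24.8% of all genes did). Among the ranked lower genes were 9 (1.26% of all genes were), and the median log2 fold change of the list was -1.58. Endocrine markers make up 12 of these 18 genes and all 9 of the ranked ones, so the counts of both lists rest largely on the same genes. The ranked genes numbered 3 without WT animal 1, 8 without WT animal 2, 1 without CFTR−/− animal 1 and 7 without CFTR−/− animal 2. The prohormone convertases cut hormone precursors at paired basic residues. PCSK2, the convertase of alpha cells, had 131 and 102 CPM in WT and 16.3 and 42.3 CPM in CFTR−/− animals. PCSK1 had 101 and 78.5 CPM in WT and 11.2 and 39.7 CPM in CFTR−/− animals. Secretogranin V (SCG5), the chaperone of PCSK2, had 412 and 431 CPM against 84.0 and 146 CPM, and chromogranin B (CHGB) had 61.8 and 61.4 CPM against 9.25 and 16.5 CPM. In each of these genes CFTR−/− animal 1 was the lowest of the 4 animals.

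Genes of electrical excitability and glucose sensing couple fuel to hormone release. Of 17 tested, 15 had a lower value and 9 lay below WT (24.8% of all genes did). Among the ranked genes were 3 lower (1.26% of all genes) and 1 higher (1.80%). The median log2 fold change was -0.81. It was -0.27 without CFTR−/− animal 1, -1.37 without CFTR−/− animal 2 and -0.51 with total counts, where that of all genes was 0.29. KCNK16, a potassium leak channel of the islet, had 148 and 144 CPM in WT and 15.7 and 28.1 CPM in CFTR−/− animals (log2 fold change -2.74, SE 0.58). KCNJ11, the pore of the ATP-sensitive potassium channel that closes when glucose is metabolized, had 50.8 and 36.4 CPM against 4.07 and 10.7 CPM. Its partner, the sulfonylurea receptor ABCC8, had 147 and 104 CPM against 19.4 and 52.3 CPM. KCNH6, a voltage-gated potassium channel, had 63.3 and 36.5 CPM in WT and 6.37 and 13.2 CPM in CFTR−/− animals. The ranked higher member was SLC2A1, the glucose transporter GLUT1 that red cells and many other cell types carry, with 17 and 20.1 CPM in WT and 27.3 and 67.8 CPM in CFTR−/− animals (log2 fold change 1.36, SE 0.45, and 0.55 without CFTR−/− animal 2).

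All 17 genes of regulated exocytosis had a lower value, 13 of them lay below WT (24.8% of all genes did) and 3 were among the ranked lower genes (1.26% of all genes). Their median log2 fold change was -0.88. It was -0.82 without CFTR−/− animal 1, -1.40 without CFTR−/− animal 2 and -0.61 with total counts, where that of all genes was 0.29. The vesicle protein SYT5 had 25.5 and 22.6 CPM in WT and 7.03 and 9.71 CPM in CFTR−/− animals. RAB3C, a small GTPase of secretory vesicles, had 31.4 and 23.7 CPM against 6.37 and 14.9 CPM. SYT13, the member with the highest CPM and a gene of the endocrine lineage, had 142 and 106 CPM against 35.5 and 63.9 CPM. SNAP25, a component of the membrane fusion complex, had 29.6 and 26.6 CPM against 14 and 16.6 CPM, a smaller difference.

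Transcription factors of the endocrine lineage include the factor that starts it and those that act after it. NEUROG3, which is switched on briefly in endocrine progenitors, had 9.97 and 13.4 CPM in WT and 7.02 and 11.8 CPM in CFTR−/− animals, so that the groups overlapped (log2 fold change -0.30, SE 0.68, 0.01 without CFTR−/− animal 1 and -0.74 without CFTR−/− animal 2). NEUROD1, its direct target, had 38.5 and 25.2 CPM in WT and 5.06 and 12.7 CPM in CFTR−/− animals. PAX4, a factor of the beta and delta cell path, had 25.1 and 24.1 CPM against 2.51 and 8.53 CPM. RFX6, which acts in islet cells of several types, had 33.5 and 29.3 CPM against 5.0 and 14 CPM. INSM1, the member with the highest CPM, had 79.7 and 63.8 CPM against 19.8 and 37.0 CPM. Over the list, 16 of 17 factors had a lower value, 13 lay below WT and 2 were among the ranked lower genes, and the median log2 fold change was -1.20, or -0.67 without CFTR−/− animal 1. PDX1 was not analysed here. Whether NEUROG3 differed less than its targets was not tested.

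**Figure D1:**
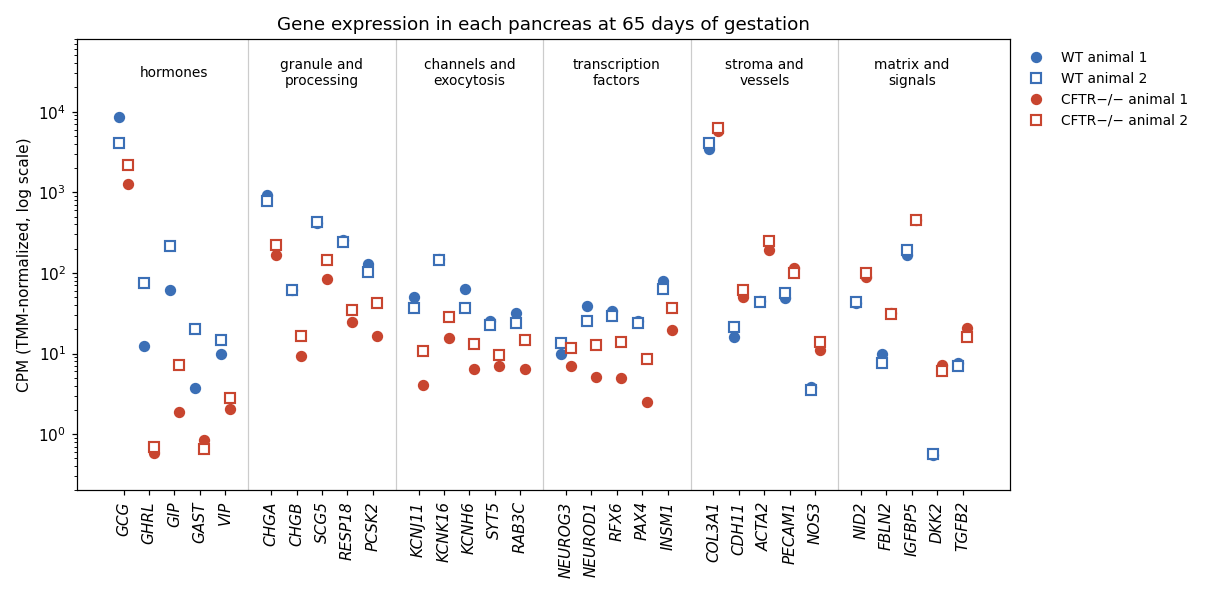
Expression in each of the 4 animals at 65 days, in CPM after TMM normalization on a log scale, with 1 column per gene. Filled circles are animal 1 and open squares animal 2, blue for WT and red for CFTR−/−. The CFTR−/− points lie below the WT points for the endocrine genes except NEUROG3, where they overlap, and above them for the 10 genes of stroma, vessels, matrix and signals.

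Acinar markers also had mostly lower values. Of 19 tested, 18 were lower and 14 lay below WT (24.8% of all genes did), but only 1 was among the ranked lower genes (1.26% of all genes). The median log2 fold change was -0.73. It was -1.20 without CFTR−/− animal 1, -0.56 without CFTR−/− animal 2 and -0.51 with total counts, where that of all genes was 0.29. The trypsinogen gene PRSS2 (LOC101112559) had 1157 and 1092 CPM in WT and 293 and 160 CPM in CFTR−/− animals (log2 fold change -2.31, SE 0.84). It belongs to a family of near-identical trypsinogen loci, among which reads may be split. SPINK1, the trypsin inhibitor that acinar cells secrete with the enzymes, had 263 and 231 CPM against 76.2 and 58.3 CPM. Carboxypeptidase A1 (CPA1, LOC101117326) had 8354 and 8186 CPM against 4368 and 3379 CPM. The elastase gene CELA3B (LOC101103454) had 2033 and 1399 CPM against 869 and 711 CPM. Carboxyl ester lipase (CEL) had 4095 and 3040 CPM against 2815 and 2246 CPM. CTRB1 was at 38562 and 40324 CPM in WT and at 34983 and 14190 CPM in CFTR−/− animals, so its lower mean came mostly from animal 2. The log2 fold changes of CPA1 (-1.09, SE 1.16), CEL (-0.50, SE 0.92) and CTRB1 (-0.68, SE 2.35) were all within 1 SE of no difference. Summed over the list, acinar markers came to 62374 and 63306 CPM in WT and 48372 and 24375 CPM in CFTR−/− animals.

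Ductal and epithelial markers did not move one way. Of 16 tested, 10 were higher and 6 lower, 7 lay above and 4 below WT (29.1% and 24.8% of all genes did), and 0 were among the ranked genes. Their median log2 fold change was 0.13, and -0.07 without CFTR−/− animal 1, 0.25 without CFTR−/− animal 2 or 0.36 with total counts. The keratins named here had higher values, and none of them was ranked. KRT7 had 65.4 and 64.4 CPM in WT and 170 and 126 CPM in CFTR−/− animals, and KRT19 (LOC101117946) had 109 and 117 CPM against 239 and 163 CPM. KRT8, the member with the highest CPM, had 365 and 372 CPM against 577 and 442 CPM. ELF5, a transcription factor of glandular and ductal epithelia, had 26.1 and 27.2 CPM against 35.0 and 23.8 CPM, so that the groups overlapped. On the lower side, ANXA4, an annexin of epithelial membranes, had 46.1 and 62.6 CPM in WT and 37.6 and 40.5 CPM in CFTR−/− animals.

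Transcription factors of pancreatic progenitors, which the endocrine, acinar and ductal lineages share early on, were spread around the median of all genes. The listed factors PDX1, PTF1A and RBPJL were not analysed here. Of 15 tested, 6 were higher and 9 lower, and 3 lay above and 5 below WT, where 29.1% and 24.8% of all genes did. Of these factors 0 were ranked, and the median log2 fold change was -0.06 (0.19 with total counts in place of TMM, and between -0.16 without CFTR−/− animal 1 and -0.01 without WT animal 1). SOX9, which maintains the progenitor pool and later marks ducts, had 92.8 and 81.5 CPM in WT and 104 and 95.6 CPM in CFTR−/− animals. GATA6, a factor of early pancreas identity, had 59.2 and 59.0 CPM against 71.8 and 70.8 CPM. HNF4A had 54.2 and 50.1 CPM against 23.7 and 38.2 CPM, and FOXA3 had 32.9 and 24.3 CPM against 16.7 and 14.9 CPM.

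The list of channels and transporters of epithelial fluid secretion, which includes CFTR itself, leaned to the higher side. Of 18 tested, 15 were higher and 14 lay above WT (29.1% of all genes did), 2 were among the ranked higher and 1 among the ranked lower genes, and the median log2 fold change was 0.60. ANO1, a calcium-activated chloride channel, had 5.38 and 5.35 CPM in WT and 11.8 and 10 CPM in CFTR−/− animals (log2 fold change 1.02, SE 0.24). Outside epithelia it is found in smooth muscle and interstitial cells. SLC4A4, the sodium bicarbonate cotransporter that loads duct cells with bicarbonate, had 47.4 and 41.4 CPM against 67.6 and 71.3 CPM. The water channel AQP1, also a gene of vessels and red cells, had 0.295 and 0.693 CPM against 1.3 and 2.67 CPM, and the membrane carbonic anhydrase CA4 rested on 3 and 2 counts against 23 and 53. SCNN1B, a subunit of the epithelial sodium channel, went the other way, at 2.87 and 2.37 CPM in WT and 0.656 and 0.171 CPM in CFTR−/− animals.

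Mucins and the genes of mucin folding had mostly lower values. Of 12 tested, 9 were lower, 7 lay below WT (24.8% of all genes did) and 1 was among the ranked lower genes (1.26% of all genes). The median log2 fold change was -0.82, or -0.51 without WT animal 2 and -0.53 with total counts, where that of all genes was 0.29. The mucins themselves did not go one way. MUC6, a gel-forming secreted mucin, had 1.06 and 0.732 CPM in WT and 0.198 and 0.423 CPM in CFTR−/− animals. The membrane mucin MUC1 had 28.3 and 19.4 CPM against 28.3 and 23.5 CPM, where the groups overlap. MUC4, another membrane mucin, rested on 2 and 0 counts in WT and 39 and 26 counts in CFTR−/− animals, and 2 of the 12 genes lay above WT. AGR2, a disulfide isomerase needed for mucin folding, had 128 and 170 CPM in WT and 26.7 and 17.2 CPM in CFTR−/− animals, 6.80-fold lower. SPDEF, a transcription factor of mucus-secreting cells, had 86.3 and 46.6 CPM against 31.0 and 19.5 CPM. The trefoil peptide genes TFF1 and TFF2, whose products are secreted with mucins, had lower values in both CFTR−/− animals. TFF1 was at 34.8 and 80.1 CPM against 27.8 and 6.14 CPM, and TFF2 was at 217 and 327 CPM against 186 and 109 CPM. The unfolded protein response, which secretory cells use to keep up with protein folding, had 25 of 29 genes lower, 17 below WT (24.8% of all genes were) and 0 ranked. Its median was -0.29, against 0.03 over all genes, and with total counts -0.03, against 0.29 over all genes. HSPA5, its central chaperone, had 836 and 925 CPM in WT and 570 and 533 CPM in CFTR−/− animals. SDF2L1 had 31.5 and 31.5 CPM against 14.5 and 6.86 CPM, and DERL3 had 4.53 and 4.41 CPM against 1.10 and 0.968 CPM.

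Markers of the tissue between the epithelial structures had higher values in CFTR−/− animals. All 20 stromal markers were higher, all 20 lay above WT and 6 were among the ranked higher genes (1.80% of all genes were), with a median log2 fold change of 0.99. The fibrillar collagens COL1A1 and COL3A1 build the bulk of interstitial matrix. COL1A1 had 1700 and 1704 CPM in WT and 2777 and 3572 CPM in CFTR−/− animals. COL3A1, the member with the highest CPM, had 3446 and 4108 CPM against 5700 and 6271 CPM. Decorin (DCN), a proteoglycan that binds collagen, had 436 and 552 CPM against 855 and 653 CPM. CDH11, the cadherin of mesenchymal cells, had 16.1 and 21.2 CPM against 49.6 and 61.7 CPM (log2 fold change 1.58, SE 0.39), and COL6A3 had 145 and 129 CPM against 283 and 320 CPM. Summed stromal markers came to 9816 and 11202 CPM in WT and to 17344 and 18273 CPM in CFTR−/− animals. The ranked stromal genes numbered 0 without WT animal 1, 1 without WT animal 2, and 2 without CFTR−/− animal 1 or animal 2, while the median stayed between 0.95 and 1.06.

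The list of stellate cells, myofibroblasts and smooth muscle had all 11 genes tested higher and above WT, with a median log2 fold change of 1.38, but only 1 was among the ranked genes. Smooth muscle actin (ACTA2), which stellate cells make once activated and which all smooth muscle makes, had 44.6 and 43.0 CPM in WT and 194 and 250 CPM in CFTR−/− animals (log2 fold change 2.34, SE 0.84). MYH11, the smooth muscle myosin, had 4.14 and 3.46 CPM against 18.6 and 31.4 CPM. SPARC, a matrix protein of stellate cells and other mesenchyme, had 1004 and 1344 CPM against 2176 and 2025 CPM (log2 fold change 0.84, SE 0.51).

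Endothelial markers were higher too. All 20 were higher and above WT, 7 were among the ranked higher genes, and the median log2 fold change was 1.09. PECAM1, an adhesion molecule of endothelial junctions, had 48.6 and 57.0 CPM in WT and 116 and 99.2 CPM in CFTR−/− animals, and VE-cadherin (CDH5) had 20.3 and 29.9 CPM against 64.5 and 61.1 CPM. The endothelial nitric oxide synthase NOS3 had 3.88 and 3.56 CPM against 11.1 and 13.7 CPM. ANGPT2, a ligand that loosens vessels for sprouting, had 2.05 and 1.74 CPM against 17.2 and 7.67 CPM. The ranked endothelial genes numbered 2 without WT animal 1, 3 without WT animal 2, 2 without CFTR−/− animal 1 and 6 without CFTR−/− animal 2.

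Basement membranes lie where epithelium, vessels and nerves meet the stroma. All 20 genes of basement membrane and elastic fibre were higher, 19 lay above WT and 9 were among the ranked higher genes. Their median log2 fold change was 1.14. Nidogen 2 (NID2), which links laminin to collagen IV, had 42.5 and 43.9 CPM in WT and 88.9 and 101 CPM in CFTR−/− animals (log2 fold change 1.14, SE 0.26), and NID1 had 43.5 and 49.0 CPM against 81.5 and 87.2 CPM. FBLN2, a matrix protein of elastic fibres and basement membranes, had 9.77 and 7.60 CPM against 31.6 and 31.2 CPM. LTBP1, which holds latent TGF-beta in the matrix, had 71.7 and 79.7 CPM against 176 and 197 CPM. MFAP4, a microfibril protein that is also in the stromal list, had 5.47 and 5.84 CPM against 43.4 and 34.9 CPM, 6.92-fold higher. The ranked genes numbered 2 without WT animal 1 or animal 2, 6 without CFTR−/− animal 1 and 5 without CFTR−/− animal 2.

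Nerves hold neurons and the Schwann cells that wrap them. Of 12 Schwann cell markers, 11 were higher, 10 lay above WT and 4 were among the ranked higher genes, and their median log2 fold change was 1.5. Neuronal markers had 9 of 10 lower, 4 below WT (24.8% of all genes were), 0 ranked and a median of -0.28 (-0.50 without WT animal 1 and -0.43 without CFTR−/− animal 1). With total counts it was -0.03, against 0.29 over all genes. FOXD3, a factor of neural crest and early Schwann cells, had 0.552 and 0.366 CPM in WT and 2.87 and 2.67 CPM in CFTR−/− animals. SOX10, the factor that defines this lineage, had 1.61 and 2.75 CPM against 4.10 and 7.48 CPM. With SCN7A, the ranked Schwann genes numbered 3 to 5 whichever animal was left out.

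Signals that act between mesenchyme and epithelium leaned the same way as the stroma. Of 17 genes of the IGF axis, 16 were higher, 14 lay above WT and 3 were among the ranked higher genes, and their median log2 fold change was 0.99, or 0.81 with IRS2, which had 0 counts in both WT animals, set to its bound at a floor of 3 counts per library. IGFBP5, a binding protein that tethers IGF to matrix, had 167 and 193 CPM in WT and 449 and 459 CPM in CFTR−/− animals (log2 fold change 1.34, SE 0.28). IGFBP3, the main carrier of IGF in serum, had 3.13 and 3.01 CPM against 15.5 and 14.2 CPM. The ligand gene IGF2 had 20.1 and 17.6 CPM against 48.7 and 36.7 CPM, while IGF1 had 0.552 and 0.902 CPM against 1.63 and 0.907 CPM, groups that all but touch.

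In the list of CCN and TGF-beta genes, 17 of 18 were higher, 15 lay above WT and 3 were among the ranked higher genes, and their median log2 fold change was 0.96. TGFB2, a ligand of the pathway that drives matrix production, had 7.57 and 6.93 CPM in WT and 20.7 and 16 CPM in CFTR−/− animals. NOV, the matrix-associated factor also called CCN3, had 2.57 and 4.64 CPM against 15.7 and 34.6 CPM. LEFTY2, an extracellular inhibitor of Nodal signalling, was the member that went the other way and the only ranked lower one, at 30.6 and 12.4 CPM in WT and 1.06 and 3.16 CPM in CFTR−/− animals.

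Of 23 WNT pathway genes, 20 were higher, 16 lay above WT and 4 were among the ranked higher genes, and their median log2 fold change was 1.05. Several members encode antagonists. DKK2, a secreted modulator of the WNT coreceptors, had 0.552 and 0.562 CPM in WT and 7.23 and 6.13 CPM in CFTR−/− animals, 11.9-fold higher. SFRP2, a decoy that binds WNT ligands, had 6.54 and 6.97 CPM against 31.3 and 20.4 CPM. DACT1, an intracellular regulator of the pathway, had 7.13 and 7.73 CPM against 29 and 28 CPM. SFRP1, the member with the highest CPM, differed little, at 336 and 374 CPM in WT and 486 and 400 CPM in CFTR−/− animals. Of 17 Notch pathway genes, 14 were higher, 13 lay above WT, and 2 were ranked higher and 1 lower, with a median log2 fold change of 0.42, or 0.68 with total counts. NOTCH3, the receptor of mural cells of vessels, had 17.5 and 14.1 CPM in WT and 43.3 and 45.6 CPM in CFTR−/− animals. HES6, an inhibitor of HES1 that is expressed in endocrine progenitors, had 25.6 and 20.9 CPM against 8.47 and 6.28 CPM. In the lists whose ranked members are not given by animal, their number in either direction was 0 to 5 when any 1 of the 4 animals was left out.

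**Figure D2:**
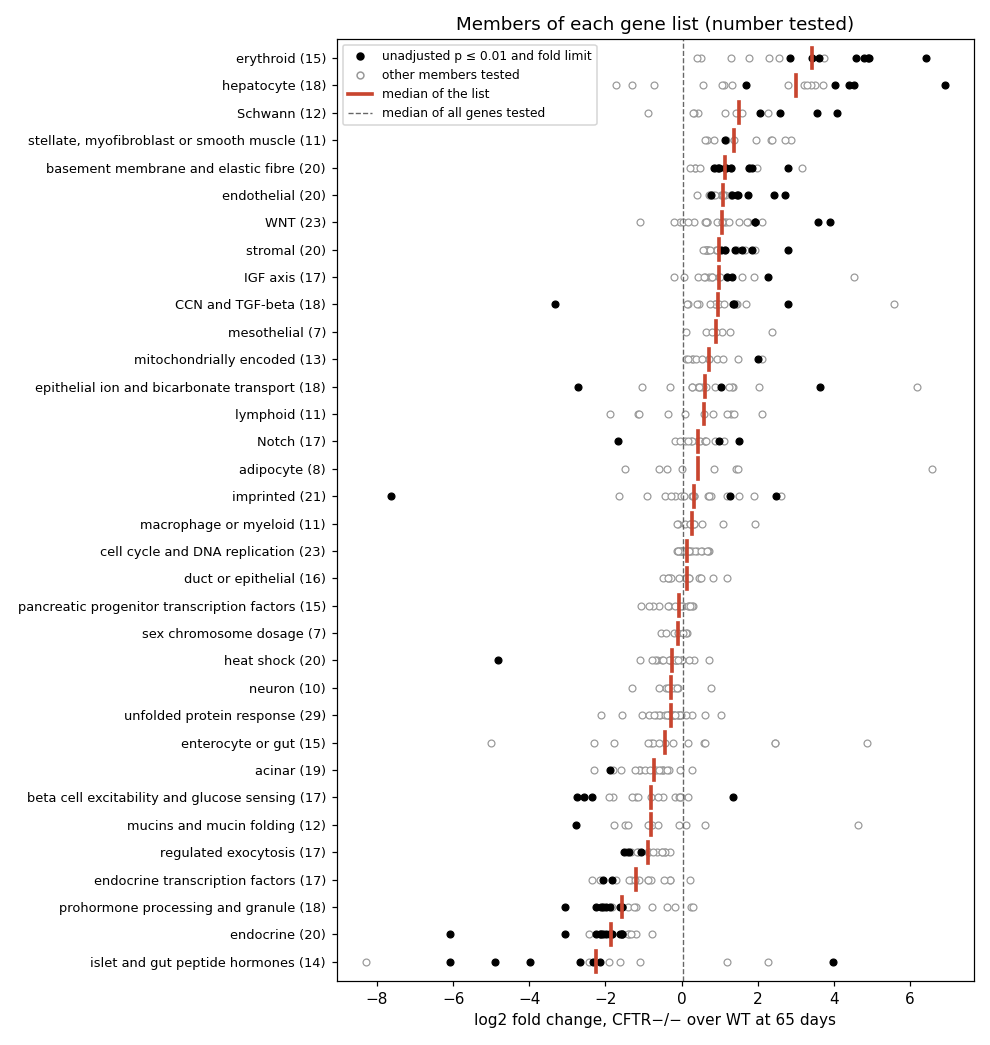
Log2 fold change of CFTR−/− over WT at 65 days for every tested member of each gene list, in order of the list's median. Black points have an unadjusted p of at most 0.01 and pass the limit on the fold change, and the red bars are medians. Hormones, endocrine markers and granule genes have the lowest medians, at -2.24, -1.86 and -1.58, and the lists of erythroid and hepatocyte genes the highest, at 3.43 and 3.01, which fall to -1.0 and -1.79 without CFTR−/− animal 2.

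Transcripts of liver and of red cells stood apart in 1 animal. Summed hepatocyte markers came to 2741 and 1973 CPM in WT and to 2719 and 7935 CPM in CFTR−/− animals, and summed erythroid markers to 689 and 690 CPM in WT and to 508 and 4277 CPM in CFTR−/− animals. In both lists CFTR−/− animal 2 was high and CFTR−/− animal 1 was not. Albumin (ALB) had 109 and 3.48 CPM in WT and 1.15 and 1288 CPM in CFTR−/− animals, and alpha-fetoprotein (AFP) had 68.0 and 7.01 CPM against 2.57 and 699 CPM. No defining marker of either cell type was at 0. The hepatocyte gene with the highest CPM was APOA1 (LOC101117785), which the fetal gut and other tissues make too, at 817 and 929 CPM in WT and 2270 and 1489 CPM in CFTR−/− animals. The hepatocyte list also holds TTR, which the study gives as a marker of its endocrine cell clusters. The sums and medians of this list need not be of liver alone. Alpha globin (HBA1, LOC101108797), the erythroid gene with the highest CPM, had 639 and 649 CPM against 478 and 3889 CPM, and the beta globin locus named HBB (LOC101105437) had 5.74 and 4.08 CPM against 1.93 and 11.9 CPM. Of 18 hepatocyte genes 15 were higher and 5 were among the ranked higher genes (1 without CFTR−/− animal 2, 1 without WT animal 2 and 9 without CFTR−/− animal 1). Of 15 erythroid genes 15 were higher and 8 were ranked (0 without CFTR−/− animal 2, 2 and 1 without WT animals 1 and 2, and 13 without CFTR−/− animal 1). The median log2 fold changes of 3.01 and 3.43 became -1.79 and -1.0 without CFTR−/− animal 2. TAL1 had 1.63 and 1.44 CPM in WT and 4.96 and 17.3 CPM in CFTR−/− animals, and this blood and endothelial factor was thus higher in both. FGL1, a liver-secreted protein, was above WT in both animals as well, with 2 and 4 counts in WT and 524 and 314 counts in CFTR−/− animals. The part of liver and blood transcripts in other results was not tested. Without CFTR−/− animal 2 the medians of endocrine, stromal, endothelial and Schwann markers were -2.35, 1.02, 1.2 and 1.28, and with it they were -1.86, 0.99, 1.09 and 1.5.

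Markers of other cell types the tissue could hold were tested too. Of 15 gut markers 6 were higher and 9 lower, of 11 myeloid markers 9 and 2, of 11 lymphoid markers 7 and 4, of 8 adipocyte markers 4 and 3, and of 7 mesothelial markers 7 and 0, and 0 members of these lists were among the ranked genes. Their median log2 fold changes in this order were -0.43, 0.26, 0.58, 0.42 and 0.91, and with total counts those of gut and myeloid markers were -0.16 and 0.49. Without 1 animal, each of the first 4 medians changed sign or reached 0, or moved widely (0.02 for gut without CFTR−/− animal 1 and 0.00 without WT animal 2, -0.07 for myeloid and -0.31 for lymphoid markers without CFTR−/− animal 1, 1.07 for lymphoid markers without WT animal 2, and -0.60 for adipocyte markers without CFTR−/− animal 2). The mesothelial list had 5 of 7 markers above WT, and its median lay between 0.79 and 1.06 when 1 animal was left out.

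Of 23 genes of the cell cycle and DNA replication, 17 were higher (52.7% of all genes were), 11 lay above WT (29.1% of all genes did) and 0 were ranked. Their median log2 fold change was 0.14, against 0.03 over all genes. The median of the list ranged from 0.03 to 0.21 when 1 animal was left out. With total counts it was 0.39, against 0.29 over all genes. The proliferation marker MKI67 had 19.7 and 23.7 CPM in WT and 24 and 47.0 CPM in CFTR−/− animals, and topoisomerase TOP2A had 70.3 and 81.6 CPM against 93.5 and 107 CPM. All 13 genes of the mitochondrial genome were higher, 9 lay above WT (29.1% of all genes did) and 1 was ranked higher (1.80% of all genes were). Their median was 0.72 (0.37 without WT animal 1 and 1.11 without WT animal 2). ND1, a subunit of complex I, had 145 and 286 CPM against 353 and 468 CPM. ND6, the complex I subunit encoded on the other strand, was the ranked one, at 77.3 and 101 CPM in WT and 344 and 365 CPM in CFTR−/− animals, and how strand was treated in the counting is not stated. HSPA6 is one of the heat shock genes. In that list 17 of 20 were lower, 12 lay below WT (24.8% of all genes did) and 1 was ranked lower (1.26% of all genes were). The median was -0.24, and with total counts 0.02, against 0.29 over all genes. DNAJB1, a cochaperone induced with HSP70, had 113 and 102 CPM in WT and 49.8 and 51.4 CPM in CFTR−/− animals. Of 7 tested genes that escape or balance X dosage 3 were higher and 4 lower, with a median of -0.09 (0.10 without WT animal 1, 0.04 without CFTR−/− animal 1, and -0.25 and -0.23 without the other animal of each genotype). With total counts it was 0.17, against 0.29 over all genes.

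Imprinted genes are expressed from 1 parental copy and are known to be disturbed in some cloned animals. Of 21 tested, 14 were higher and 7 lower, where 52.7% and 47.0% of all genes were. Of the same 21, 7 lay above and 4 below WT, where 29.1% and 24.8% of all genes did. The ranked genes were 2 higher and 1 lower, and the median log2 fold change was 0.31, or 0.55 with total counts. SGCE, a maternally imprinted sarcoglycan gene, had 32.6 and 36.9 CPM in WT and 65.2 and 102 CPM in CFTR−/− animals. The transcript NESP55 (LOC101102411) of the GNAS locus on chromosome 13, which encodes a granule protein of endocrine cells, had 2559 and 3722 counts in WT and 35 and 0 counts in CFTR−/− animals. At 80 days it had 1990 and 3018 counts in WT and 0 and 0 in CFTR−/− animals, and at 100 days the CFTR−/− animals had 845 and 1381. In a library of 65 days a count of 0 allows up to 0.0302 CPM in CFTR−/− animal 2, for counting error only. The transcript overlaps GNAS, so that its count is uncertain.

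At 80 days, in other animals of both genotypes, fewer genes had groups that did not overlap, with 15.1% above and 15.8% below WT. Not every list followed, as 9 of 16 ductal and epithelial markers lay above WT at 80 days and 7 at 65 days. At 80 days 0 genes passed the adjusted threshold by edgeR, with a smallest adjusted p of 0.850, and 68 genes (0.348%) were ranked higher and 43 (0.220%) lower. The difference between the genotype effects of the 2 ages, tested for each gene, passed at an adjusted p of at most 0.01 for 0 of 19522 genes (0.00%, smallest adjusted p 0.108, edgeR), and 481 genes (2.46%) had an unadjusted p under 0.05. So no gene was shown to differ at 65 days alone in the fit to all 20 libraries. With the 8 libraries of 65 and 80 days alone, 1 gene passed the same limit. In the fit to all 20 libraries, HSPA6 had the smallest p for the difference between the ages. At 80 days it stood at 3.29 and 2.37 CPM in WT and at 9.48 and 9.75 CPM in CFTR−/− animals, the reverse order of 65 days, and the difference of log2 fold changes was -6.60 (SE 0.96, edgeR adjusted p = 0.108).

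Endocrine markers at 80 days had 15 of 20 lower and 7 below WT (15.8% of all genes lay below WT at that age), 0 ranked and a median log2 fold change of -0.31. Their summed CPM was 14049 and 10389 in WT and 10203 and 7514 in CFTR−/− animals, so that both CFTR−/− animals were above the CFTR−/− animals of 65 days and the higher of them was near the lower WT animal. For 8 of the 20 markers, and for 8 of 14 hormones, the unadjusted p of the difference between ages was under 0.05. GIP had a log2 fold change of -4.90 (SE 1.11) at 65 days and 1.85 (SE 0.97) at 80 days, and GHRL one of -6.08 (SE 1.65) and 0.40 (SE 1.26). In the stromal list all 20 genes were higher at 80 days too, with 2 above WT (15.1% of all genes) and a median of 0.44. Its summed CPM was 6392 and 7074 in WT and 6190 and 11677 in CFTR−/− animals, where the pairs overlap. Schwann markers, at a median of 1.5 at 65 days, had one of -0.10 at 80 days, and endothelial markers had 1.09 and 0.31.

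**Figure D3:**
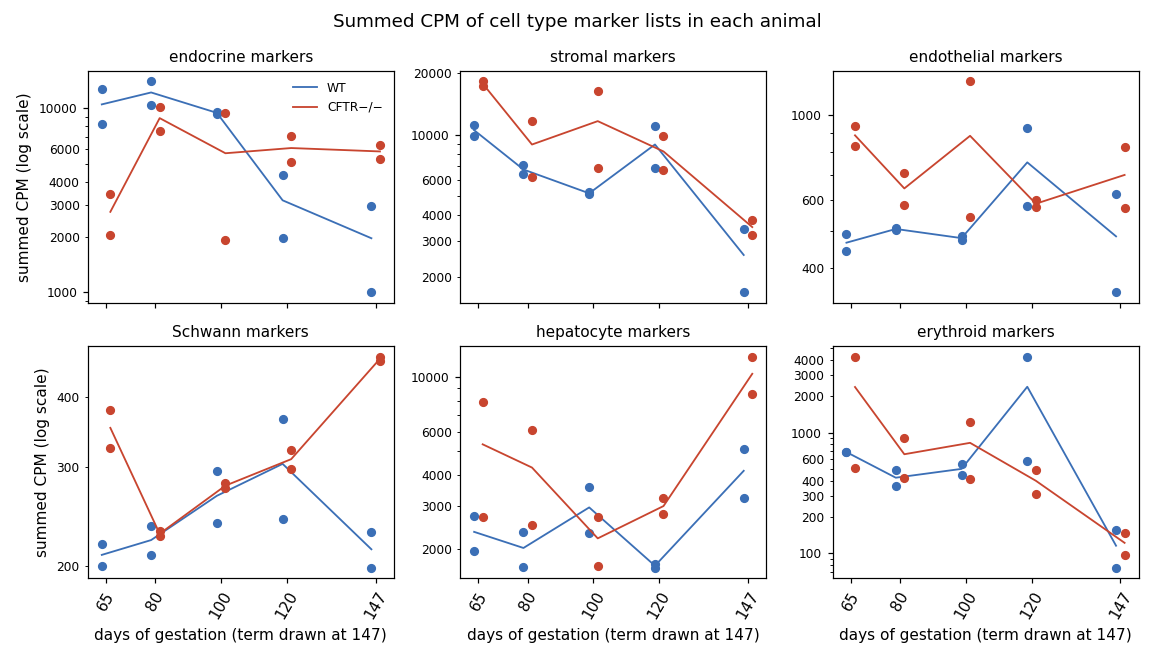
Summed CPM of 6 lists of cell type markers in each of the 20 animals against days of gestation, on log scales, with term drawn at 147 days. Points are animals, lines join the means of the 2 animals, and the genotypes are set slightly apart. At 65 days both CFTR−/− animals lie below WT for endocrine markers (2055 and 3419 against 12781 and 8262 CPM) and above WT for stromal, endothelial and Schwann markers, while for hepatocyte and erythroid markers CFTR−/− animal 2 alone is high.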

How the data were processed

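The authors extracted RNA with TRIzol, primed cDNA with oligo dT, sequenced 100 bp paired ends, aligned the reads to Oar_v4.0 with STAR (2.6 in the submitters' processing notes, a later version in the study's methods) and counted them per gene with featureCounts 1.6.3. The deposited counts are whole numbers for 24478 genes, without normalization. All 20 libraries were fitted in edgeR 4.0.16 (R 4.3.3) with filterByExpr (minimum count 10, minimum total 15), TMM, estimateDisp, glmQLFit and glmQLFTest, over 10 groups of genotype and age, and the contrast at 65 days was adjusted over all genes by the Benjamini-Hochberg method. Each SE was taken as the size of the fitted log2 value over the root of its F statistic. The fit was tested on simulated counts with 200 changed genes. There, more of the unchanged genes had an unadjusted edgeR p of at most 0.01, or under 0.05, than these limits name. The ranking can thus admit more unchanged genes than its p implies. Of 8432 locus numbers, 501 were named from RefSeq (ARS-UI_Ramb_v3.0) and 7 from the study's tables. The 34 lists hold 563 genes, of which 515 were tested and 39 are in more than 1 list, and 100 are named in the study's text. Members and lists were chosen with earlier results of these data known. Named genes were taken from 27 that the study names for this age or as cell type markers, the 5 per direction with the smallest p among genes whose groups do not overlap and, per list, the 4 such members with the smallest p, the member with the highest CPM and the first 2 members. Of the 199 genes this takes, 115 are given, and which list members to give was decided after their values were seen. Alternatives included DESeq2 1.42.0 and leaving out each library. Some members of the lists are not reported here by name.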

Additional observations from a re-analysis of the deposited data

How the results depend on the processing

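With all 20 libraries, 0 genes were called by the quasi-likelihood test of edgeR (1928 at an unadjusted p under 0.05), and likewise with DESeq2 size factors, total counts, no filter, glmTreat, the legacy fit or an adjusted p of 0.05. The 4 libraries of 65 days alone gave 123 calls, DESeq2 42 and the likelihood ratio test 8. Without 1 library of 65 days the calls ranged from 0 to 1 (1 without CFTR−/− animal 1). At an unadjusted p of at most 0.01 with the fold limit, 351 genes were higher and 246 lower. These counts were 569 and 118 with total counts, 1181 and 761 with the 4 libraries alone, 190 and 140 with glmTreat, and 666 and 466 when the spread was estimated without the library of the second WT animal of 120 days and that of the second CFTR−/− animal of 100 days. The legacy fit gave 158 higher and 165 lower genes. Without 1 library of 65 days they ranged from 77 to 281 and from 60 to 171. With total counts, 8108 genes lay above and 2492 below WT. With the 8 libraries of 65 and 80 days alone, 1 gene passed the adjusted limit of 0.01 for the difference between the ages, and 1716 had an unadjusted p under 0.05. The cause was not tested.

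As 0 of 115 named genes were called, keeping to that side of the threshold says nothing on stability. Under 14 alternatives 44 of their values passed it and 8 turned direction. NEUROG3 ranged from -0.74 to 0.00969 without 1 library (0.00969 without CFTR−/− animal 1). ELF5 ranged from -0.17 (without CFTR−/− animal 1) to 0.39, and MUC1 from -0.13 (without WT animal 2; -0.03 without CFTR−/− animal 1) to 0.40. Without CFTR−/− animal 2, ALB was at -5.61, AFP at -3.87, HBA1 at -0.44 and HBB at -1.35, and the highest values without 1 library were 7.52, 5.63, 2.58 and 1.26. A library left alone in its group is assumed to vary like the others.

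With the replicate number as a block, 0 genes were called, 351 were higher and 243 lower at the unadjusted p, and 468 differed between ages at an unadjusted p under 0.05. Deviations of equally numbered samples correlated at -0.10, -0.25, -0.15, 0.33 and 0.02 from 65 days to term. Whether such samples share more than a number was not tested.

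The counts of list members without each library, and a trend with exon length, were examined after seeing the data. In 5 equal classes of genes from short to long exons the median log2 fold change was -0.17, 0.00, 0.06, 0.08 and 0.11, and without this trend the median of endocrine markers was -1.80. Of 35 medians 3 then moved by over 1 SD between animals, from -0.06 to -0.11 for progenitor factors, from -0.82 to -0.69 for mucin genes and from 1.14 to 1.10 for basement membrane. Larger shifts that were within 1 SD were those of hormones, from -2.24 to -2.06, and of myeloid markers, from 0.26 to 0.41.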

Other observations

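The families given here were chosen after their values were seen and have no test. HOX genes, which encode transcription factors that set position along the body axis, had 26 of 27 tested genes higher in CFTR−/− animals at 65 days and 23 above WT, where 29.1% of all genes lay above, and 1 was higher at an unadjusted p of at most 0.01 with the limit on the fold change. Their median log2 fold change was 1.4 at 65 days and 0.33 at 80 days. HOXB6 had 2.31 and 3.12 CPM in WT and 8.27 and 4.14 CPM in CFTR−/− animals.

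Ribosomal protein genes lay on the other side. Of 80 tested, 79 were lower and 65 lay below WT, where 24.8% of all genes lay below, and 0 were lower by the same limits, with a median of -0.75 (-0.52 with total counts, -0.39 without CFTR−/− animal 2 and -1.20 without CFTR−/− animal 1). At 80 days their median was 0.21. RPLP0 had 4124 and 4678 CPM in WT and 3038 and 1804 CPM in CFTR−/− animals.

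Genes of the axoneme, the microtubule core of motile cilia, had 49 of 61 lower, 32 below WT (24.8% of all genes were) and 7 lower by the same limits (1.26% of all genes). Their median was -0.71 at 65 days and -0.17 at 80 days. CFAP45 had 5.51 and 4.55 CPM in WT and 1.05 and 1.87 CPM in CFTR−/− animals, and DRC1 had 8.62 and 6.09 CPM against 2.87 and 2.91 CPM. The levels are low, and the cells they come from were not tested.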
